A study of Mus musculus with 31 samples.

Results

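The comparison set mice that carry extra CYFIP1 against WT mice within the transgenic line labelled 3. The labels number the lines 1 and 3 while the text of the study speaks of lines 1 and 2, and line 3 is taken here as labelled, without equating it with line 2. The comparison covered the 16 mice with that line label, 8 with the genotype CYFIP OE (CYFIP1 OE, or OE) and 8 labelled Control (WT), of 31 mice in all. It also covered 17324 of the 48709 genes in the files, those with at least 10 reads in 4 or more of the 16 files. Basolateral amygdala (BLA) tissue was taken with a 1-mm punch from each side of a brain slice, the left and right punches of a mouse were pooled, and the RNA was sequenced by QuantSeq, which reads only the 3′ end of each transcript. Each genotype held 4 males and 4 females, and the 16 mice were 58 to 64 days old.

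The OE mice carry a bacterial artificial chromosome (BAC) with the human CYFIP1 gene, on a C57BL/6N background, and the WT mice have no transgene. The line descends from 1 founder, so within it the dose of CYFIP1 and the site where the BAC inserted cannot be told apart. The transgene is human and the reads were counted on the mouse genome, so the mouse Cyfip1 gene does not check the genotype labels. Mouse Cyfip1 (chr7:55841745-55932602, GRCm38) ranged from 27.5 to 38.6 CPM (normalized read counts at a common library size) with a median of 35.3 in WT mice. In OE mice Cyfip1 ranged from 27.4 to 36.5 CPM with a median of 32.1. The groups overlapped, with a log2 fold change of OE over WT of -0.11 ± 0.11 (SE).

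CYFIP1 is a subunit of the WAVE regulatory complex, which switches on the Arp2/3 complex to build branched actin filaments, and it also binds FMRP and the cap-binding factor eIF4E and so holds back translation of some mRNAs. The gene lies in the 15q11.2 interval whose copy number is linked to autism and schizophrenia. The BLA is needed for learned fear, and its principal neurons are glutamatergic cells under the control of local GABAergic interneurons.

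Total reads per mouse ranged from 5286717 to 8685334, so 1 CPM stood for 5.31 to 10.2 reads. An OE male titled X424.C4 stood apart. Its connectivity Z-score, the standardized mean correlation of its profile with those of the other 15 mice, was -3.47, against -0.79 to 0.75 in the others, and its most abundant gene took 19.1% of its reads. The study's methods removed samples with a low Z-score of network connectivity, and -3.47 is below the number used as their cutoff. The score here came from the 16 line 3 files alone, with the gene filter above, so it is not the study's own score. The study's text does not say whether X424.C4 was among those removed. Counts, gene lists and leading genes are therefore given with and without this mouse. The most alike pair of the 16 files had identical counts in 2.58% of genes, so no library was taken as deposited in duplicate. Mouse names begin with 4 prefixes that the labels do not explain: X424 (3 WT, 1 OE), SMC12 (2 WT, 1 OE), X605B (2 WT, 4 OE) and X605A (1 WT, 2 OE).

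The labelled tissue was checked against its markers. Slc17a7, the vesicular glutamate transporter of BLA principal neurons, was read in all 16 mice but ranged from 24.7 CPM in the OE mouse SMC12.C7 to 1068 CPM in X424.C4. Transcripts of neighbouring structures were present at widely different levels. Drd1, a dopamine receptor of striatal neurons, ranged from 9.48 to 324 CPM, and Ttr, the transthyretin of choroid plexus, from 13.0 to 8035 CPM. The dopamine receptor Drd2 had 20 reads in 6 of the 16 files and was at 0 in the other 10. X424.C4 was the lowest of the 16 mice for Gad1, a GABA-synthesizing enzyme, at 29.5 CPM, and the highest for Fibcd1, a marker used here for hippocampus after the values were seen, at 118 CPM. The WT mouse X424.C2 came next for Fibcd1 at 75.8 CPM. In these bulk samples fewer cells of a type and less RNA per cell cannot be told apart.

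With all 16 mice, 30 genes were higher and 50 were lower in OE mice at an unadjusted p under 0.005, which is 0.173% and 0.289% of the genes tested. No gene had an adjusted p under 0.05 by edgeR's quasi-likelihood test, where the smallest adjusted p was 0.730, while 1114 genes had an unadjusted p under 0.05 and DESeq2 called 2 genes after adjustment. At an unadjusted p under 0.05, 568 genes (3.28%) were higher and 546 (3.15%) were lower. The median log2 fold change of all genes tested was -0.02. Of the 80 genes, 59 code for proteins, 7 are processed pseudogenes and 49 had a mean of at least 5 CPM.

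Without X424.C4, 65 genes (0.375%) were higher and 92 (0.531%) were lower at an unadjusted p under 0.005, again with no gene under 0.05 after adjustment by edgeR (smallest adjusted p 0.155). At an unadjusted p under 0.05 the counts were 713 genes (4.12%) higher and 784 (4.53%) lower. Of the 80 genes called with all mice, 58 were also called without X424.C4. Leaving out the WT mouse X605B.A3 raised the count from 80 to 241, and leaving out the WT mouse X605B.A7 lowered it to 51. In every alternative all of the 80 genes that were still tested kept their direction.

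Among the genes higher in OE mice, those with a role in cell signalling included the lead gene. Rit1 (chr3:88716838-88731049), a small GTPase of the Ras family, ranged from 9.85 to 14.8 CPM (median 11.5) in WT mice and from 13.0 to 27.4 CPM with a median of 20.8 in OE mice. In 7 of 8 OE mice Rit1 was above the highest WT mouse. The log2 fold change was 0.74 ± 0.16 (SE, unadjusted p = 0.00016, adjusted p = 0.730 by edgeR) with all mice and 0.64 ± 0.15 without X424.C4, and Rit1 passed an unadjusted p under 0.005 in 31 of 31 alternatives. Arhgdib (chr6:136923655-136941899), which holds a class of small GTPases in their inactive form, went from a WT median of 4.05 CPM (3.09 to 10.8) to an OE median of 9.52 CPM (5.18 to 22.0), with a log2 fold change of 1.03 ± 0.27. All 8 OE mice lay above the WT median of Arhgdib, but the groups overlapped, and without the OE mouse X605B.A1 its unadjusted p was 0.00634. Mchr1 (chr15:81235499-81238964), the receptor for melanin-concentrating hormone, ranged from 8.38 to 21.5 CPM (median 10.4) in WT mice and from 15.7 to 34.7 CPM (median 19.8) in OE mice, a log2 fold change of 0.80 ± 0.22. Without X424.C4 the log2 fold changes were 1.10 ± 0.27 for Arhgdib and 0.85 ± 0.22 for Mchr1.

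Other genes higher in OE mice act in the nucleus, the matrix and the vesicle pathway. Aff3, a nuclear protein of the AF4/FMR2 family, had a WT median of 28.6 CPM (17.5 to 40.3) and an OE median of 45.8 CPM (29.3 to 54.8), with a log2 fold change of 0.66 ± 0.15. Lamc1, the gamma 1 chain of laminins, had a WT median of 3.75 CPM (2.64 to 5.19) and an OE median of 6.19 CPM (4.93 to 9.60), with 7 of 8 OE mice above every WT mouse and a log2 fold change of 0.82 ± 0.22. Cygb, the haem protein cytoglobin, had a WT median of 59.2 CPM (51.0 to 86.5) and an OE median of 84.5 CPM (73.1 to 151), with a log2 fold change of 0.58 ± 0.15. The highest Cygb value, 151 CPM, was that of X424.C4, and without this mouse the log2 fold change was 0.48 ± 0.13, beside 0.60 ± 0.14 for Aff3 and 0.85 ± 0.23 for Lamc1.

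Syt4, a synaptotagmin of secretory vesicles, was above the highest WT mouse in 7 of 8 OE mice, at a median of 158 CPM (133 to 210) against 122 CPM (98.6 to 150). Its log2 fold change was 0.39 ± 0.12, and its call at an unadjusted p under 0.005 was lost when any of 7 single mice was left out. The mitochondrial ribosomal protein gene Mrps34 (0.48 ± 0.14) also lost its call without any of 7 single mice. The sialyltransferase gene St6galnac6 (0.64 ± 0.19) lost it without any of 8. Gm37612, an unnamed gene model, had a log2 fold change of 0.96 ± 0.26, with a WT median of 6.94 CPM and an OE median of 14.3 CPM. Without X424.C4 the log2 fold changes were 0.32 ± 0.09 for Syt4, 0.49 ± 0.15 for Mrps34, 0.43 ± 0.13 for St6galnac6 and 0.93 ± 0.26 for Gm37612.

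Among the genes lower in OE mice, Sqle had the smallest p of the protein-coding genes with a mean of at least 5 CPM. Sqle (chr15:59315077-59331192) codes for squalene epoxidase, an early oxidation step of cholesterol synthesis. It ranged from 17.1 to 27.1 CPM (median 22.8) in WT mice and from 10.4 to 19.8 CPM with a median of 14.9 in OE mice. In 7 of 8 OE mice Sqle was below the lowest WT mouse. The log2 fold change was -0.60 ± 0.15 (SE, unadjusted p = 0.000598, adjusted p = 0.764 by edgeR) and -0.61 ± 0.15 without X424.C4. Its direction was the same within each of the 4 name prefixes, at -0.38 in X424, -1.21 in SMC12, -0.50 in X605B and -0.41 in X605A. These are differences of means without a sex term, and only X605B has more than 1 mouse of each genotype. In SMC12 and X605A the WT and OE mice are of opposite sex, so there sex and genotype cannot be told apart.

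Slc31a1, Snapc1 and Cdc7 were also lower at an unadjusted p under 0.005. Slc31a1, the copper importer of the plasma membrane, had a WT median of 13.2 CPM (9.67 to 26.5) and an OE median of 8.58 CPM (5.07 to 12.6), with a log2 fold change of -0.91 ± 0.24. Snapc1, a subunit of the complex that starts transcription of small nuclear RNA genes, had a WT median of 15.5 CPM (12.7 to 17.3) and an OE median of 10.3 CPM (7.76 to 13.4), with 7 of 8 OE mice below every WT mouse. Cdc7, a kinase that starts DNA replication, had a WT median of 9.81 CPM (6.15 to 15.1) and an OE median of 4.94 CPM (1.55 to 7.53). The log2 fold changes were -0.58 ± 0.15 for Snapc1 and -1.02 ± 0.26 for Cdc7, and X424.C4 was the lowest mouse for both. Without it the log2 fold changes were -0.53 ± 0.15 for Snapc1, -0.88 ± 0.22 for Cdc7 and -1.05 ± 0.24 for Slc31a1.

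Amy1, an alpha-amylase, was lower in OE mice by a log2 fold change of -0.64 ± 0.16, with a median of 8.48 CPM (6.09 to 12.4) against 14.3 CPM (10.4 to 16.9). The transmembrane protein gene Sez6l was lower by -1.02 ± 0.26, at a median of 16.6 CPM (11.1 to 25.0) against 35.0 CPM (10.7 to 54.6). The lowest of all 16 Sez6l values, 10.7 CPM, was that of the WT mouse X605B.A3. The gene model Gm19817 was lower by -1.20 ± 0.30, at a median of 3.57 CPM against 7.96 CPM. Without X424.C4 the log2 fold changes were -0.60 ± 0.17 for Amy1, -1.07 ± 0.27 for Sez6l and -1.12 ± 0.30 for Gm19817.

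**Figure D1:**
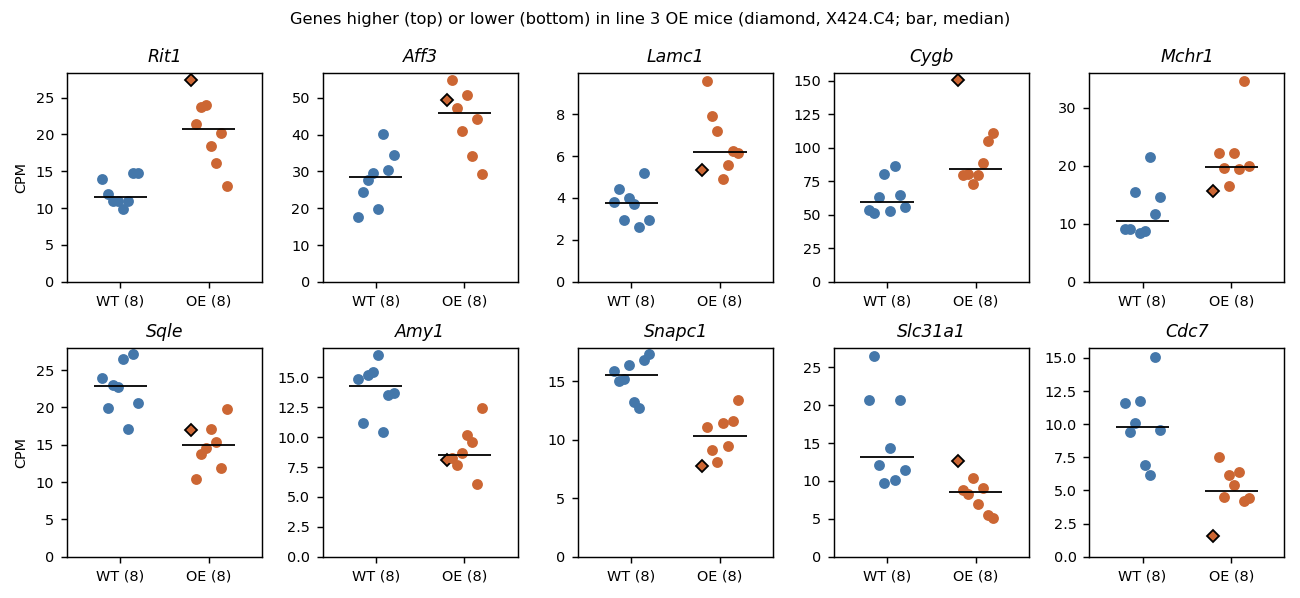
CPM (linear axis from 0) of 5 genes higher and 5 genes lower in OE mice, with 1 point per line 3 mouse, bars at group medians and a diamond for X424.C4. The OE median lies above the WT median in the top panels (Rit1, 20.8 against 11.5 CPM) and below it in the bottom panels (Sqle, 14.9 against 22.8 CPM), with overlap between the groups in every panel.

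Among all genes tested, 1 gene (0.00577%) had groups that did not overlap with all 16 mice. This gene, Trip10 (chr17:57249455-57263665), was named after its values were seen because its mean is under 5 CPM. It codes for an F-BAR protein that binds Cdc42 and bends membranes. Trip10 ranged from 1.15 to 4.40 CPM (median 1.91) in WT mice and from 0.154 to 0.753 CPM with a median of 0.440 in OE mice, a log2 fold change of -2.24 ± 0.47, and of -2.21 ± 0.50 without X424.C4. At these levels a mouse has few reads of the gene, so counting error is a large part of each value.

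Without X424.C4, 10 genes (0.0577%) had groups that did not overlap, which besides Trip10 were Hbegf, Postn, Tbc1d4, Gfod1 and Gm16339 (higher in OE mice) and Snx24, Tenm2, Klrg2 and Ccdc71l (lower). Hbegf codes for a growth factor of the EGF family. It ranged from 10.5 to 19.6 CPM in WT mice and from 20.2 to 28.7 CPM in the 7 OE mice, while X424.C4 was at 14.8 CPM. Th, tyrosine hydroxylase of catecholamine synthesis, was also named after its values were seen, with a median of 3.33 CPM (1.32 to 5.18) in OE mice against 0.596 CPM (0.294 to 2.34) in WT mice and a log2 fold change of 1.91 ± 0.47, and of 1.80 ± 0.49 without X424.C4.

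Some genes depended on X424.C4 more than the others did. Tbc1d4, a Rab GTPase-activating protein of glucose transporter traffic, ranged from 5.43 to 16.8 CPM in WT mice and from 17.1 to 36.7 CPM in the 7 OE mice, with X424.C4 at 4.49 CPM. Its log2 fold change was 1.00 ± 0.30 with all mice and 1.17 ± 0.22 without X424.C4 (unadjusted p = 2.95e-05, adjusted p = 0.172 by edgeR). With all mice its call at an unadjusted p under 0.005 was lost in 13 of 31 alternatives, among them those that left out any of 11 single mice. Slit1, a secreted axon guidance ligand of Robo receptors, ranged from 6.59 to 40.2 CPM (median 14.7) in WT mice and from 2.77 to 9.70 CPM in the 7 OE mice, but reached 44.0 CPM in X424.C4. The log2 fold change of Slit1 was -0.90 ± 0.55 with all mice and -1.85 ± 0.34 without X424.C4 (unadjusted p = 2.98e-05, adjusted p = 0.172). Within prefixes it was -1.36 in SMC12, -1.55 in X605A and -1.11 in X605B but 1.01 in X424, without a sex term. In SMC12 and X605A the WT and OE mice are of opposite sex.

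The adhesion molecule teneurin-2 gave a like pattern. Tenm2 ranged from 33.2 to 87.7 CPM in WT mice and from 19.7 to 33.0 CPM in the 7 OE mice, with X424.C4 at 92.0 CPM. The log2 fold change of Tenm2 was -0.51 ± 0.28 with all mice and -0.85 ± 0.18 without X424.C4. Pbx3, a homeodomain transcription factor, had a log2 fold change of 0.74 ± 0.32 and 0.92 ± 0.23, and Ccdc71l one of -0.61 ± 0.23 and -0.85 ± 0.18, with all mice and without X424.C4. The postsynaptic scaffold gene Shank1 moved from -0.22 ± 0.36 to -0.75 ± 0.20, with 335 CPM in X424.C4 against 49.3 to 95.6 CPM in the other OE mice.

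**Figure D2:**
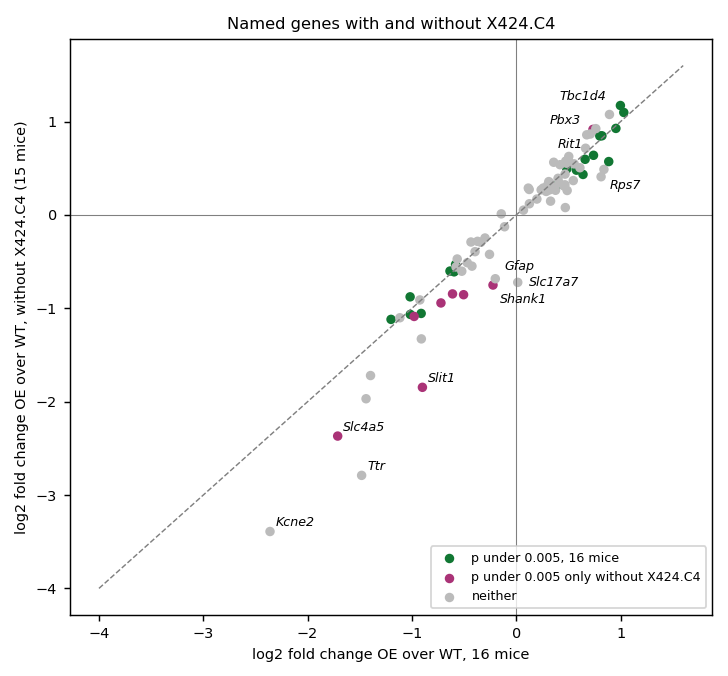
Log2 fold change of OE over WT of the genes reported one by one with all 16 line 3 mice (horizontal axis) and with 15 mice, without X424.C4 (vertical axis), where the dashed line marks equal values and colours mark the threshold of an unadjusted p under 0.005. Slit1 (-0.90 and -1.85) and Ttr (-1.48 and -2.79) lie far below the line, while Rit1 (0.74 and 0.64) lies near it, and 3 pseudogenes are left out.

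Several of the lowest p-values belonged to processed pseudogenes, which are intron-less copies of an mRNA elsewhere in the genome. Of the 7 called, 6 were lower and 1, Gm9493, was higher in OE mice. Reads from such a copy and from its parent gene can match both, so the counting could move reads between them. Gm10221 (chr5:24581554-24581862, minus strand, GRCm38) is 309 bases long and has 0 mismatches to the coding sequence of Atp5l, a subunit of ATP synthase. Atp5l-ps1 (chr7:62476306-62476617, plus strand) is a second copy, with 98.4% identity over 312 bases and the changes C16T, C51T, C68T, G100A and T141G. Rpl34-ps1 (chr6:71124610-71124963, plus strand) is 354 bases long and differs from the coding sequence of the ribosomal protein gene Rpl34 by T132C and C318G. Positions are counted from 1 at the first base of the aligned coding sequence, with the base of the parent gene first. The sequences are shown because they let a reader see how little separates these genes, and capitals mark the mismatched bases. The first line gives bases 1 to 120 shared by Gm10221 and Atp5l, and the others give bases 102 to 348 of the Rpl34 pair.
Gm10221 and Atp5l: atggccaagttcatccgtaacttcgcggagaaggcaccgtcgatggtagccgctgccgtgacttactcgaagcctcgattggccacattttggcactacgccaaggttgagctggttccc
Rpl34-ps1: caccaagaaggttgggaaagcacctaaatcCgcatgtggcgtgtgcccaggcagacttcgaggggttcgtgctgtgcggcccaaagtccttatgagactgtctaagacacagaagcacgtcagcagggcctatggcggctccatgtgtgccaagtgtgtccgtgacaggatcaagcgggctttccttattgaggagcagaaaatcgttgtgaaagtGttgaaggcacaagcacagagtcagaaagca
Rpl34: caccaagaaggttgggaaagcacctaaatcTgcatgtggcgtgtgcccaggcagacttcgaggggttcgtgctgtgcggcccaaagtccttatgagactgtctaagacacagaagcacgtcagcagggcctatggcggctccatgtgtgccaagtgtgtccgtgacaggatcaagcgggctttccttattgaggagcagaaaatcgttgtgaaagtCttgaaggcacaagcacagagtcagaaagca

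Gm10221 was at 0 in all 8 OE mice and in 3 WT mice, and reached 66.1 CPM with a median of 7.91 in WT mice. Against the floor of 3 reads over the 8 OE mice its mean was at least 264-fold lower in OE mice (exact permutation test on CPM, two-sided, p = 0.0256). The WT mouse X424.C1 held the highest value, and without it the bound was at least 137-fold. Gm10221 passed the filter on reads through WT mice alone and was named for its small p. Neither the bound nor the permutation p-value therefore adds support. Atp5l itself had a mean of 146 ± 44.4 CPM (SD, n = 8) in WT mice and 202 ± 94.6 CPM in OE mice. Summed over Gm10221, Atp5l-ps1 and Atp5l, the means were 165 ± 43.6 CPM in WT mice and 202 ± 94.7 CPM in OE mice, with X424.C4 at 421 CPM (exact permutation test, two-sided, p = 0.399). The WT mean of Gm10221 was 15.2 CPM, less than the SD of the sum in either group. The sum could therefore not show whether reads moved to the parent gene.

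The other copies gave like values. Rpl34-ps1 was at 0 in 7 of 8 OE mice and 2 WT mice, with a WT median of 11.1 CPM, while the sum of Rpl34-ps1 and Rpl34 was 231 ± 35.0 CPM in WT mice and 234 ± 60.9 CPM in OE mice (SD, 8 mice a group, exact permutation test, two-sided, p = 0.895). Amd-ps3, a copy of the gene for S-adenosylmethionine decarboxylase with 1 mismatch to Amd1 over 1005 bases, was at 0 in all 8 OE mice and in 2 WT mice. Its WT values reached 28.3 CPM with a median of 5.07, and its mean was at least 175-fold lower in OE mice (exact permutation test, two-sided, p = 0.00699). Without the WT mouse X424.C1, which held the highest value, the bound was at least 130-fold. Amd-ps3 too passed the filter through WT mice alone and was named for its small p. Neither this bound nor this p-value therefore adds support. The sum of Amd-ps3, Amd1 and Amd2 was 246 ± 32.2 CPM in WT mice and 264 ± 29.8 CPM in OE mice (exact permutation test, two-sided, p = 0.257). The WT means of Rpl34-ps1 (11.7 CPM) and Amd-ps3 (10.1 CPM) were also below the SDs of these sums. A move of reads could not be seen there either.

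**Figure D3:**
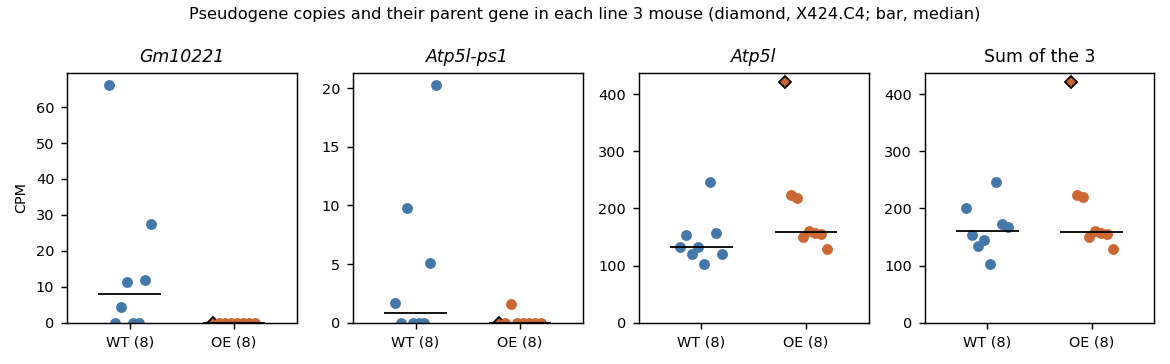
CPM (linear axes from 0) of Gm10221, Atp5l-ps1, their parent gene Atp5l and the sum of the 3 in each line 3 mouse, with bars at medians and a diamond for X424.C4. Gm10221 is at 0 in all 8 OE mice and above 0 in 5 WT mice, while the summed values overlap.

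Immediate early genes are switched on within minutes of neuronal activity, largely through CREB and serum response factor at their promoters. Of 18 such genes listed, 17 were tested (Egr3 had too few reads). At an unadjusted p under 0.05, 0 were higher and 5 were lower in OE mice, beside 3.28% and 3.15% of all genes. Of the 17, 16 had a log2 fold change below 0. The median of the 17 was -0.52 with all mice and -0.60 without X424.C4, against -0.02 for all genes in both fits. Without this mouse 7 were lower at that threshold, beside 4.53% of all genes. With the name prefix as a term the median was -0.47 with 2 lower, and -0.37 with 3 lower without X424.C4.

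The core letters of the CREB site, TGACG on either strand, stand in the 250 bases upstream of the start of 12 of the 14 listed genes with a promoter in RefSeq, and of 23.1% of 27025 genes. The full palindrome TGACGTCA, which holds TGACG on both strands, stands in 2 of the 14 (Btg2 and Dusp1) and in 2.03% of genes. A match is a description of letters and not evidence of a bound factor. The upstream sequences of Fos (chr12:85473640-85473889, plus strand) and Btg2 (chr1:134079156-134079405, minus strand) are shown as the members with the single and the palindromic form, from RefSeq on GRCm38.p6, 5′ to 3′ on the strand of the gene, with the matches in capitals.
Fos: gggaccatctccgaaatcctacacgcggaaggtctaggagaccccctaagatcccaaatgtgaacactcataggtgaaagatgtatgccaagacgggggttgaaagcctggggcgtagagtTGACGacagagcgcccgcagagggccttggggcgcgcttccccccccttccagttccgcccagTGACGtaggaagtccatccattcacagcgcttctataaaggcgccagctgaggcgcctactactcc
Btg2: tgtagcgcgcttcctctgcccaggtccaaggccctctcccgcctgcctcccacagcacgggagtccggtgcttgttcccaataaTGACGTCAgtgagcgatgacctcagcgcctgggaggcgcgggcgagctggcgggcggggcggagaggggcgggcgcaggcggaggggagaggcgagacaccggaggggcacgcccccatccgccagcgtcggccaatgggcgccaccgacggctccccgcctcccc

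Fos, the AP-1 subunit used as a marker of recent neuronal activity, ranged from 4.83 to 13.5 CPM (median 9.99) in WT mice and from 1.72 to 9.70 CPM with a median of 4.16 in OE mice. All 8 OE mice were below the WT median, and 5 were below the lowest WT mouse. The log2 fold change of Fos was -0.98 ± 0.31 (SE, unadjusted p = 0.00549, adjusted p = 0.764 by edgeR) with all mice and -1.09 ± 0.33 (unadjusted p = 0.00337, adjusted p = 0.497) without X424.C4. Within the prefixes it was -0.38 in X424, -1.23 in SMC12, -0.52 in X605B and -2.05 in X605A, without a sex term. In SMC12 and X605A, where it was largest, the WT and OE mice are of opposite sex and 1 genotype is a single mouse.

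The other immediate early genes past an unadjusted p under 0.05 were Ier2 (-1.12 ± 0.45), Nr4a2 (-1.09 ± 0.49), Nr4a3 (-0.79 ± 0.34) and Fosl2 (-0.52 ± 0.22), where Fosl2 is an AP-1 subunit and Nr4a2 and Nr4a3 are orphan nuclear receptors. Jun was at -0.56 ± 0.28 with all mice and passed it without X424.C4 at -0.73 ± 0.26. Nr4a2 overlapped widely, at 14.0 to 269 CPM in WT mice and 11.9 to 150 CPM in OE mice. Egr1, a zinc finger factor and the member with the highest CPM, did not pass the threshold, at 0.10 ± 0.29 with all mice and 0.28 ± 0.18 without X424.C4, and Arc, a synaptic cytoskeletal protein, was at -0.19 ± 0.21 and -0.08 ± 0.18. The summed level of the list ran from 370 to 914 CPM in WT mice and from 282 CPM in X424.C4 to 800 CPM in OE mice, so the groups overlapped. Of 16 circadian clock genes, 2 were higher and 0 lower with all mice, beside 3.28% and 3.15% of all genes, with a median of 0.13. With the name prefix as a term 2 were higher, with a median of -0.005, and 0 without X424.C4. The 2 with all mice were the transcription factor genes Tef and Nr1d1, at 0.41 ± 0.13 and 0.55 ± 0.22. Without X424.C4 they were at 0.34 ± 0.12 and 0.37 ± 0.18, where Nr1d1 no longer passed (unadjusted p = 0.055 by edgeR). The time of day of dissection is not given in the labels, so its part was not tested.

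Marker genes of neighbouring tissues varied widely between mice, and X424.C4 was at an extreme for several of them. All 8 choroid plexus genes had log2 fold changes below 0, with a median of -1.46 with all mice and -2.53 without X424.C4. At an unadjusted p under 0.05, 3 of the 8 were lower with all mice and 7 without this mouse, beside 3.15% and 4.53% of all genes. With the name prefix as a term 1 was lower, and 2 without X424.C4, with medians of -1.04 and -1.38. Kcne2, a potassium channel subunit of choroid epithelium, had a WT median of 4.26 CPM (0 to 21.1) and an OE median of 0.0659 CPM (0 to 5.87). Enpp2, the secreted enzyme autotaxin that choroid plexus and oligodendrocytes make, had a WT median of 389 CPM (62.5 to 1361) and an OE median of 172 CPM (78.1 to 478). The summed list spanned 21.3 to 8284 CPM in WT mice and 41.6 to 4601 CPM in OE mice, so within a genotype it varied more than the medians (1126 and 490 CPM) differed.

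Striatal projection neuron genes went the other way, and 14 of 14 tested were above 0 in log2 fold change. Their median was 0.65 with all mice, with 0 genes past an unadjusted p under 0.05, beside 3.28% of all genes higher. It was 0.84 without X424.C4, with 7 past that threshold, beside 4.12% of all genes higher. With the name prefix as a term, where the 2 genotypes are unevenly spread over the prefixes, the median was 0.079 with all mice and 0.45 without X424.C4, with 0 genes past that threshold in both. Gng7, a G protein subunit of striatal neurons, had a WT median of 167 CPM (62.7 to 336) and an OE median of 257 CPM (61.8 to 411), with X424.C4 the lowest of the 16 mice. Adora2a, the adenosine receptor of the indirect pathway, had a log2 fold change of 0.76 ± 0.46 with all mice and 0.92 ± 0.42 without X424.C4. With striatal, choroid plexus and myelin marker scores as further terms, an alternative chosen after seeing the data, the median of the striatal list was -0.06 and that of the choroid plexus list 0.07, as those genes made the scores, and that of the immediate early list was -0.50 with 9 genes lower. Without X424.C4 that fit gave the immediate early list a median of -0.34 with 5 lower.

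BLA principal neuron genes gave a median of -0.30 with all mice and -0.59 without X424.C4, with 10 of 15 below 0. Their summed level was higher in OE mice, with a median of 5086 CPM (3443 to 7121) against 3875 CPM (2104 to 5559), so the sum and the median member differed in sign. The most abundant member was Nrgn, the calmodulin-binding protein neurogranin, at a median of 2340 CPM (1542 to 3092) in OE mice against 1517 CPM (777 to 2437) in WT mice and a log2 fold change of 0.61 ± 0.21. Next came Ppp1r1b, the phosphatase inhibitor DARPP-32, which stands in the striatal list too, at a median of 1224 CPM in OE mice against 750 CPM in WT mice. Without Nrgn and Ppp1r1b the summed median was 1242 CPM in OE mice against 1482 CPM in WT mice. Neurod6, a transcription factor of excitatory neurons, was at -0.91 ± 0.55 and, without X424.C4, at -1.33 ± 0.53. Slc17a7 was at 0.01 ± 0.57 with all mice and -0.72 ± 0.45 without this mouse.

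**Figure D4:**
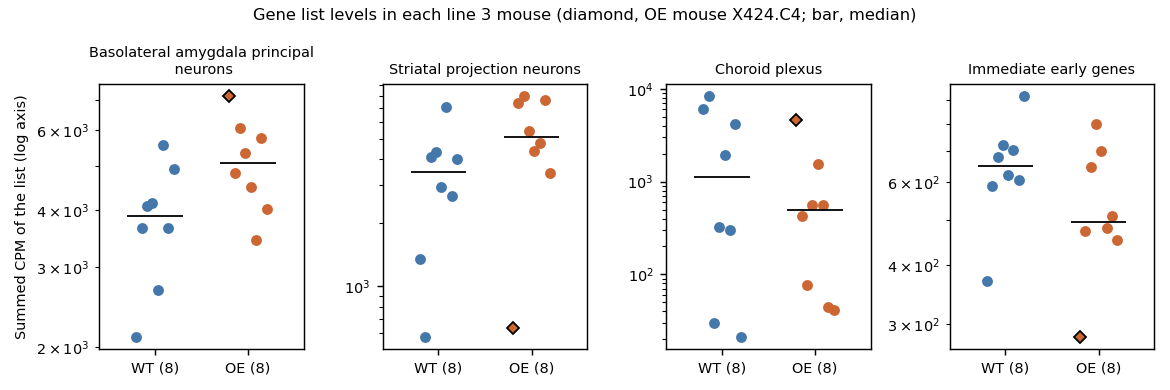
Summed CPM (log axes) of 4 gene lists in each line 3 mouse, with bars at medians and a diamond for X424.C4. X424.C4 is the highest mouse for the BLA list (7121 CPM), the lowest OE mouse for the striatal list (634 CPM) and immediate early genes (282 CPM), and the highest OE mouse for choroid plexus (4601 CPM).

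Few genes of the pathways in which CYFIP1 itself acts passed an unadjusted p under 0.05. Of all genes, 3.28% were higher and 3.15% lower at that threshold, and 4.12% and 4.53% without X424.C4. Among 11 genes of the CYFIP and WAVE complex, 0 were higher and 1 was lower at an unadjusted p under 0.05, with a median log2 fold change of 0.01. That gene, Wasf3, a WAVE protein, had a WT median of 49.9 CPM (35.8 to 66.6) and an OE median of 38.7 CPM (22.6 to 52.5), with a log2 fold change of -0.37 ± 0.17 (unadjusted p = 0.0361), and -0.28 ± 0.15 without X424.C4. Without this mouse 0 of the 11 passed. Cyfip2, the paralogue of CYFIP1, was at 0.13 ± 0.11 and 0.12 ± 0.11 in these fits.

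Among 10 Arp2/3 complex genes 1 was higher and 1 lower, and the actin dynamics list of 28 tested genes had 1 higher (Rhoa) and 0 lower. Of 21 FMRP and eIF4E translation genes, 0 were higher and 1, Eif4g3, was lower. The shares of all genes are those given above, and the medians of these 3 lists were -0.02, -0.09 and -0.02. Without X424.C4 the Arp2/3 list had 1 higher and 0 lower, and the actin and translation lists each had 0 higher and 1 lower, the 1 now being Ssh1 and Tsc2, with medians of 0.06, -0.03 and 0.03. The 4 listed genes of the 15q11.2 interval had 0 past that threshold in both fits, with Nipa1, a magnesium transporter gene, at -0.34 ± 0.21, Nipa2 at 0.26 ± 0.20 and Tubgcp5, a gamma-tubulin complex subunit, at -0.30 ± 0.25 with all mice.

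In the GABAergic system the counts of genes past the threshold depended on X424.C4. Of all genes, 3.28% were higher and 3.15% lower at an unadjusted p under 0.05, and 4.12% and 4.53% without X424.C4. Of 13 GABA-A receptor subunits tested, 0 were higher and 1 was lower at an unadjusted p under 0.05 with all mice, and 2 were higher and 1 lower without X424.C4. The lower one, Gabra5, the alpha 5 subunit, had a WT median of 26.9 CPM (16.5 to 88.5) and an OE median of 18.9 CPM (13.6 to 40.4), with a log2 fold change of -0.72 ± 0.31 with all mice and -0.94 ± 0.29 without X424.C4. Gabrg1 was at 0.12 ± 0.27. Of 21 genes of GABAergic neurons, 2 were higher and 0 lower, namely the calcium-binding protein gene Calb1 (0.50 ± 0.20) and the homeobox gene Dlx5 (0.89 ± 0.41). Without X424.C4, 5 were higher (Calb1, Dlx5, Reln, Nkx2-1 and Slc32a1) and 1 was lower (Lhx6). In that fit Reln, the secreted protein reelin, was at 0.54 ± 0.19 and Nkx2-1 at 0.86. With the name prefix as a term 0 were higher and 0 lower, and 2 higher and 1 lower without X424.C4. With all mice Pvalb, a calcium buffer of fast-spiking cells, was at 0.50 ± 0.36, Nkx2-1 at 0.68 ± 0.38 and the splicing factor gene Nova1 at 0.40 ± 0.15.

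Glutamate receptors had 2 of 22 higher and 0 lower with all mice, and 5 higher and 1 lower without X424.C4. Postsynaptic scaffolds had 1 of 21 higher and 0 lower, and 2 higher and 2 lower without it. Of all genes, 3.28% were higher and 3.15% lower with all mice, and 4.12% and 4.53% without X424.C4.

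Lists of energy metabolism and of ribosomal proteins had small positive medians in OE mice. Of 13 proteins encoded by the mitochondrial genome, 12 were above 0 and 2 passed an unadjusted p under 0.05, the cytochrome oxidase subunits mt-Co1 (0.31 ± 0.13) and mt-Co3 (0.32 ± 0.13), with a list median of 0.26 (0.22 without X424.C4, with 2 higher). Of 77 nuclear subunits of oxidative phosphorylation, 7 were higher and 0 lower, with a median of 0.10, and 8 were higher without X424.C4, with a median of 0.12. In these fits 3.28% and 4.12% of all genes were higher. Atp5g2, a subunit of the ATP synthase ring, had a WT median of 19.7 CPM (8.28 to 24.9) and an OE median of 26.4 CPM (18.9 to 73.0), with the highest value in X424.C4. Its log2 fold change was 0.89 ± 0.27 (unadjusted p = 0.00369) and 0.57 ± 0.19 without X424.C4 (unadjusted p = 0.00653), and the call was lost without any of 8 single mice.

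Cytosolic ribosomal proteins had 10 of 77 higher and 1 lower with all mice, and 3 higher and 1 lower without X424.C4, beside 3.28% and 4.12% of all genes higher in these fits, so that the count without this mouse is close to the share of all genes. Rpl5 was at 0.47 ± 0.16 and 0.44 ± 0.16 in these fits, while Rps7 was at 0.81 ± 0.32 and 0.41 ± 0.21, with 53.3 CPM in X424.C4 against 9.98 to 20.4 CPM in the other OE mice. In cholesterol synthesis, 1 of 22 genes was higher and 2 were lower, beside 3.15% of all genes lower. The list median was -0.21, with 16 of 22 below 0. Beside Sqle, Lss, which closes the sterol ring, was lower at -0.58 ± 0.20, and Srebf2, the transcription factor of the pathway, was at 0.49 ± 0.20 with all mice, with 69.0 CPM in X424.C4, and at 0.26 ± 0.13 without it, where its unadjusted p was 0.0588. Without X424.C4 the list had 0 higher and 2 lower, beside 4.53% of all genes lower, with a median of -0.19.

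Among glia, 3 of 14 microglial genes were higher and 0 lower at an unadjusted p under 0.05, which 3.28% of all genes passed as higher and 3.15% as lower. They were C1qa, a complement subunit (0.47 ± 0.16), Itgam, a complement receptor subunit (0.66 ± 0.30), and Tmem119 (0.48 ± 0.22). The count was 3 again without X424.C4, where 4.12% of all genes were higher and 4.53% lower. With the name prefix as a term it was 2, and 0 without X424.C4. The other C1q subunits of the list, C1qb and C1qc, were at 0.03 and 0.05 with all mice. Astrocyte genes had 2 of 16 higher and 0 lower, Aldoc (0.34 ± 0.13) and S100b (0.46 ± 0.19), and 3 higher without X424.C4, where S100b did not pass (0.31 ± 0.15). Myelin and oligodendrocyte genes had 0 higher and 1 (Enpp2) of 20 lower, although 19 of 20 were below 0, with a median of -0.18 and, without X424.C4, of -0.04. Endothelial and mural cell genes had 1 of 17 higher (Myl9, 0.84 ± 0.36) and 0 lower, but 0 higher and 1 lower (Dcn) without X424.C4, where Myl9 was at 0.49 ± 0.30. No gene passed that threshold with all mice among 5 blood genes, 9 oligodendrocyte precursor genes, 12 central amygdala and thalamus genes, 21 chaperones and 12 glucocorticoid response genes, by edgeR's test with or without adjustment. Without X424.C4, 1 central amygdala or thalamus gene was lower and 1 glucocorticoid response gene was higher, and the other 3 lists again had 0.

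**Figure D5:**
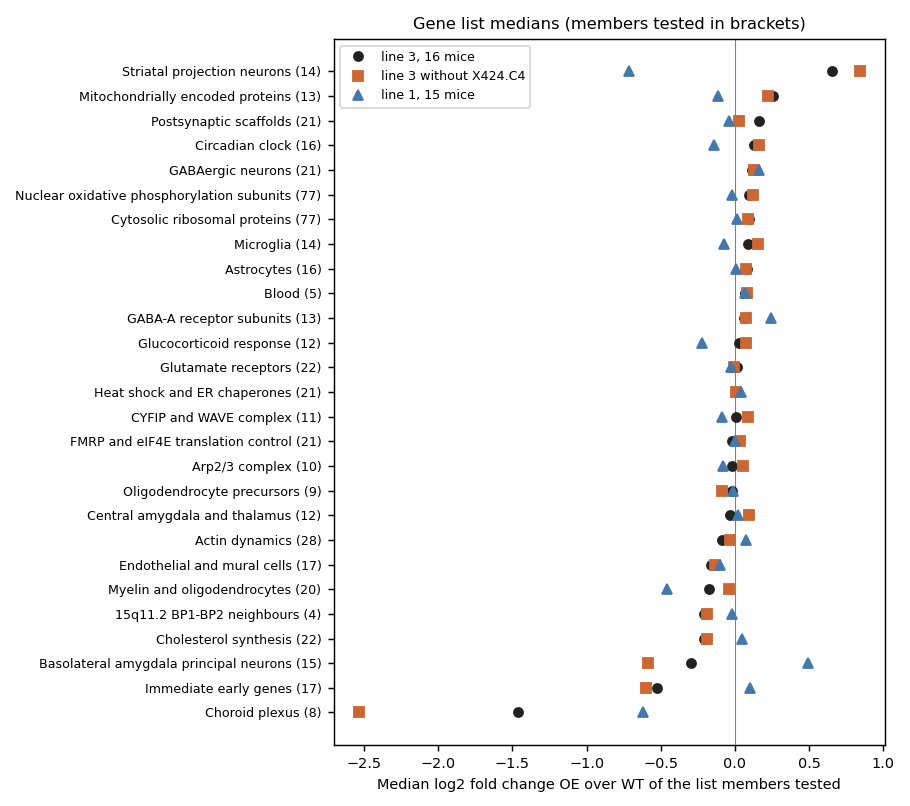
Median log2 fold change of OE over WT of the tested members of 27 gene lists, with all 16 line 3 mice, without X424.C4, and in the 15 mice of line 1. Striatal genes (0.65) and choroid plexus genes (-1.46) are at the ends in line 3, and the immediate early list is at -0.52 in line 3 and 0.10 in line 1.

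Whether these differences are shared with the other transgenic line was asked with line 1, which has 8 WT and 7 OE mice of its own. The 4 mice aged 77 days are all OE, and 7 of the 8 WT mice share a name prefix (X426) that no OE mouse has, so in line 1 genotype and prefix can hardly be told apart, nor genotype and age in part. In that line 61 genes (0.352%) passed an unadjusted p under 0.005. Only 1 gene passed it in both lines, which is 1.25% of the line 3 genes and 1.64% of the line 1 genes, and it moved in opposite directions. This gene is Ccnd1, cyclin D1 of the G1 phase, at -0.66 ± 0.18 in line 3 (WT 44.0 to 87.6 CPM, OE 23.9 to 54.6 CPM) and 0.99 ± 0.23 in line 1. Of the 80 genes of line 3, 35 had the same direction in line 1, and of the 8 with an unadjusted p under 0.05 there, 1 did. That one is Syt4, at 0.39 ± 0.12 in line 3 and 0.33 ± 0.12 in line 1.

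The difference itself was tested as a line by genotype interaction over all 31 mice. It passed an unadjusted p under 0.005 in 149 genes (0.86%) and an adjusted p under 0.05 in 0 by edgeR, with 1406 genes at an unadjusted p under 0.05, while DESeq2 gave 2 after adjustment (Amd-ps3 and Ccnd1). Of the 80 line 3 genes, 26 were among those at an unadjusted p under 0.005, a count that is favoured by the choice of these genes for their line 3 effect. Sqle was at -0.60 ± 0.15 in line 3 and 0.40 ± 0.16 in line 1, a difference of -0.99 ± 0.22 (unadjusted p = 6.85e-05). Rit1 was at -0.06 ± 0.15 in line 1, a difference of 0.80 ± 0.21 (unadjusted p = 0.000585). Sez6l was at 0.61 ± 0.28 in line 1, a difference of -1.62 ± 0.39. Fos was at 0.29 ± 0.32 in line 1, a difference of -1.23 ± 0.44 (unadjusted p = 0.00857).

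Marker lists also took other values in line 1. The striatal list median was -0.71, the BLA list median 0.49 and the choroid plexus list median -0.62, beside 0.65, -0.30 and -1.46 in line 3. The part of these markers in the line differences was not tested.

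Females and males of line 3 were compared by a sex by genotype interaction. It passed an unadjusted p under 0.005 in 73 genes (0.421%) and an adjusted p under 0.05 in 0 by edgeR, with 1177 genes at an unadjusted p under 0.05 and 2 genes after adjustment by DESeq2. Of the leading genes, Rit1 was at 0.74 in both sexes and Sqle at -0.60 in females and -0.59 in males. Gm37612 was at 0.24 in females and 1.70 in males (interaction, unadjusted p = 0.00131 by edgeR). X424.C4 is 1 of the 4 OE males, and without it 54 genes passed the interaction.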

How the data were processed

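RNA from the BLA of 31 mice was sequenced by QuantSeq 3′ Fwd with total RNA from an RNeasy kit, and the 16 mice labelled line 3 were analysed. Mapping to GRCm38 by the authors used STAR and gene quantification used Salmon, and the deposited values are expected counts (estimated counts, neither scaled nor filtered), 1 file per mouse. The tools are named in the submitters' processing notes, and their versions are not given in the sources used here. Groups, sex, line and age came from the labels.

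Estimated counts were rounded to whole numbers. Genes with at least 10 reads in 4 or more of the 16 files were tested with edgeR 4.0.16 (R 4.3.3), with TMM scaling, a two-sided quasi-likelihood F test, sex as a term and Benjamini-Hochberg adjustment over 17324 genes. Calls used an unadjusted p under 0.005, the threshold of the study's methods, which fitted DESeq2 with sequencing principal components that were not used here. DESeq2 1.42.0, limma 3.58.1 and sva 3.50.0 served in alternatives. Interactions of genotype with line and the effects in line 1 came from fits of all 31 mice, and interactions with sex used the 16. CPM values are TMM-scaled. Symbols came from GENCODE M21 for 48349 of 48709 identifiers.

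Genes reported singly were, among genes with a symbol and a mean of at least 5 CPM, the 10 with the smallest p in each direction with all mice and the 4 without X424.C4. To these were added listed genes with an unadjusted p under 0.005, 3 members of each list whose median lay over 0.1 from that of all genes, and a fixed set that includes Cyfip1. A few genes that these rules pick are not reported here. Members and the 27 gene lists were chosen with earlier results of these data known. Lists were described by counts and medians and not tested. Each mouse is 1 sample. Nothing says that the mice came from separate litters, so p-values measure the spread between these mice. Total counts of 5286717 to 8685334 limit genes with few reads, and counting floors cover counting error only. The steps were tested on simulated data.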

Additional observations from a re-analysis of the deposited data

Results flagged for a closer look

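Of 190 groups of 8 mice tested for a mouse far from the others, 33 had one. The rate of about 1 in 20 by chance holds for independent groups and is no baseline here. The groups share the same mice, and some of the genes were named from the fit without X424.C4. X424.C4 was that mouse in 21, among them its connectivity Z-score of -3.47. On the log2(CPM + 1) scale it was high among OE mice for St6galnac6 (5.79), Slit1 (5.49), Tenm2 (6.54), Ccdc71l (3.97), Shank1 (8.39), C1qa (5.66), Myl9 (4.11), Atp5k (8.74), Rps7 (5.76), Rpl24 (7.48), Srebf2 (6.13) and Tef (8.46). It was low for Cdc7 (1.35), Tbc1d4 (2.46), Pbx3 (3.89), Gng7 (5.97), Adora2a (4.37), Pdyn (2.95), Nkx2-1 (0.90) and Gad1 (4.93). Other OE mice that stood apart on that scale were X605A.A2 for Mchr1 (5.16) and X605B.A5 for Rpl34-ps1 (1.97).

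Among WT mice, X605B.A3 stood apart on the same log2(CPM + 1) scale for Sez6l (3.55), mt-Co3 (14.13), mt-Co1 (11.19), Atp5k (8.39) and Rpl24 (7.22). X424.C1 did for Calb1 (5.01) and Srebf2 (4.08), X424.C2 for Nipa1 (3.09), SMC12.C4 for Nipa2 (2.54) and X605A.A4 for Cyfip1 (4.83).

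For 8 leading genes the log2 fold change of OE over WT differed between line 3 and line 1 at an unadjusted interaction p under 0.005, and none at an adjusted p under 0.05 by edgeR. These genes were chosen for a small p in line 3, which favours a difference between the lines. The differences, line 3 minus line 1, were 0.80 for Rit1, 0.82 for Aff3, 1.55 for Arhgdib, 1.13 for Gm37612, 1.30 for Mchr1, -0.99 for Sqle, -1.62 for Sez6l and -1.30 for Cdc7. For Gm37612 the effect also differed between the sexes, by 1.46 between females and males.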

How the results depend on the processing

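The count of 80 genes at an unadjusted p under 0.005 was 166 with DESeq2, 218 with no filter on low counts, 128 with 2 surrogate variables, 331 with limma voom and sample quality weights, and 173 in 1 fit of all 31 mice. In alternatives chosen after seeing the data it was 144 with striatal, choroid plexus and myelin scores as terms and 513 without both X424.C4 and X605B.A3. Leaving out 1 mouse at a time gave 51 (X605B.A7) to 241 (X605B.A3), and 157 without X424.C4. It was 81 with the name prefix as a term, of which 29 were shared. After adjustment the count of 0 became 2 with DESeq2, 2 with no filter (both pseudogenes), 1 with surrogate variables and 2 without both mice, and stayed 0 without any single mouse. The line interaction count of 149 was 346 without X424.C4 and 95 without the 4 mice aged 77 days, and 2 genes passed adjustment with DESeq2. The sex interaction count of 73 was 155 with DESeq2, with 2 after adjustment. The cause of these shifts was not tested.

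Log2 fold changes of these genes turned direction. For Prox1 it was 0.18 without the X424 mice, 0.14 with prefix and 0.30 with prefix and no X424.C4, 0.26 with surrogate variables, 0.12 with voom, 0.30 with scores and 0.37 with scores and no X424.C4. For Slc17a7 it was -0.0035 with no filter and, in that same order, -0.55, -0.081, -0.91, -0.39, -1.44, -0.27 and -0.31, and -0.85 without both mice. Mbp was at 0.11 without the X424 mice, 0.15 with prefix and no X424.C4, 0.17 with surrogate variables, 0.27 with voom, 0.0025 with scores and 0.15 without both mice. Gfap was at 0.25 and 0.071 with prefix (all mice and no X424.C4), 0.53 with surrogate variables, 0.65 with scores and 0.31 with scores and no X424.C4. Ttr was at 0.094 with surrogate variables, 0.73 with scores and 0.43 with scores and no X424.C4. Pdyn was at -0.050 with prefix, -0.22 with scores and -0.035 with scores and no X424.C4. Gad1 was at -0.041 with prefix and -0.14 with scores, Kl at 0.044 with surrogate variables, and with scores and no X424.C4 Enpp2 was at 0.053 and Alas2 at -0.14. Leaving out 1 mouse at a time gave -0.58 to 0.089 for Prox1, -0.042 to 0.22 for Hbb-bt, -0.060 to 0.27 for Gabrg1, -0.33 to 0.16 for Mbp, -0.72 to 0.25 for Slc17a7 and -0.68 to 0.23 for Gfap. None of these genes passed an unadjusted p under 0.005 with all mice.

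No paired analysis was possible because replicate numbers only name mice in the order of deposit and pair none of them. The name prefix, which the labels do not explain but which holds both genotypes at each of its 4 values, served as a block in the fits with prefix above.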

Other observations

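In 2 further lists, chosen after the values were seen, levels rested on few mice. The summed level of 6 tested dentate gyrus and hippocampus genes was 521 CPM in X424.C4 and 588 CPM in the WT mouse X424.C2, against 48.8 to 122 CPM in the other OE mice. Their median log2 fold change of OE over WT was -0.50 with all mice and -1.48 without X424.C4. The summed level of 5 genes of ciliated ependymal cells was 52.6 CPM in X424.C4, against 7.10 to 13.0 CPM in the other OE mice and 4.41 to 33.2 CPM in WT mice, and their median was -1.03 with all mice and -2.71 without it.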
